A study of Mus musculus with 6 samples.

Results

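The genes described here encode membrane carriers of organic ions and drugs. They were taken by name from the deposited gene count table: symbols that start with Slc22a, Slco, Slc47a, Abcb or Abcc followed by a digit, and Abcg2. The rule found 55 of 24434 gene symbols, and 51 of them had enough counts to be tested. The study sequenced polyadenylated RNA from whole kidneys of mice fed normal chow, in 3 libraries labelled db/m and 3 labelled db/db, with a kit that keeps strand. The db allele disrupts the leptin receptor; homozygous animals grow obese and diabetic and are the diabetic model of the design text, and db/m mice, with one copy, are its controls. The allele is present in every cell, so the kidney difference is read on top of obesity and raised blood glucose. The sources used here give no age, sex or strain. Nothing says that each library came from a separate mouse, so the p-values rest on a spread between libraries that may be technical.

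The proximal tubule secretes organic anions and cations in a pair of steps. Carriers of the Slc22a family in the basolateral membrane take them up from blood, anions in exchange for dicarboxylates, and carriers of the apical membrane (Abcc2, Abcc4, Abcg2, the P-glycoproteins Abcb1a and Abcb1b, and the proton exchangers of the Slc47a family) release them into urine. Other Slc22a carriers, such as the urate exchanger Slc22a12, work in the apical membrane in the direction of reabsorption. The Slco family moves larger amphipathic anions, among them bile acids, steroid conjugates, thyroid hormones and prostaglandins. Several of these genes are known to differ between male and female mouse kidneys, Slco1a1 among them.

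Total counts ran from 25937756 to 35931140 per library. The members took 0.554% to 0.635% of counts in the libraries labelled db/m and 0.907% to 0.950% in those labelled db/db, with no overlap. Markers of the nephron were present in all libraries, with Umod at 1635 CPM or more and Lrp2 at 991 CPM or more (CPM, counts scaled to a common library size with TMM factors). Lepr, the leptin receptor gene, stood at 2.94, 2.48 and 3.61 CPM in db/m replicates 1 to 3 and at 5.66, 2.54 and 5.15 CPM in db/db replicates 1 to 3. The db allele changes how Lepr is spliced, so a count summed over the gene does not check the labels. The 9 hepatocyte markers summed to 479.6 to 579 CPM under db/m and 298 to 443.5 CPM under db/db, mostly Serpina1a and Apob, which fell, and Ttr, which rose. Alb was at 4.53 to 16.9 CPM, and Cyp2c29 and Tat at 0.241 CPM or less in every library. In each of the 6 libraries Xist, the RNA of the inactive X chromosome, was at 0.365 CPM or less and the Y-linked gene Ddx3y at 17.4 CPM or more, as in male tissue. Adipocyte markers were highest in db/m replicate 3 and db/db replicate 3, with summed levels of 177 and 374.4 CPM against 73.2 CPM or less in the other libraries. Lep, the leptin gene and 1 of these 7 markers, was an exception, at 0.872, 0.278 and 15.6 CPM in db/m replicates 1 to 3 and 0.161, 0 and 0 CPM in db/db replicates 1 to 3. It had too few counts to be tested. Adipoq, another of these markers, was at 13.6 CPM in db/m replicate 3 and 19.2 CPM in db/db replicate 3, where Lep had no count. The group labels were taken as given and were not tested against Lep or Lepr. Member counts without db/m replicate 3 and db/db replicate 3 are given below.

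Uptake carriers of the Slc22a and Slco families that passed were mostly higher under the db/db label (15 higher, 4 lower, of 31 tested). The Abcb and Abcc families with Abcg2 had 18 tested members. There 6 were lower, 2 (Abcb6 and Abcg2) were higher and 10 did not pass. Of the 51 tested members 17 were higher and 10 lower with an adjusted p under 0.05 by the quasi-likelihood F test of edgeR, adjusted after Benjamini and Hochberg over the 16373 genes tested. Over all genes tested 24.0% passed, 13.1% higher and 10.8% lower, so the members' 52.9% lay above the share of all genes. By family, 11 of 23 Slc22a genes rose and 3 fell, 4 of 8 Slco genes rose and 1 fell, and Abcg2 rose. Among Abcb genes 1 of 8 rose and 2 fell, 4 of 9 Abcc genes fell, and neither Slc47a gene passed. Of the called members 11 were at least 2-fold higher, against 3.71% of all genes, and 7 were at least 2-fold lower, against 4.10%. The median log2 fold change of the members was 0.11, beside -0.057 over all genes. The ranges of the 3 and 3 libraries did not overlap for 33 tested members, against 44.6% of all genes, and these included all 27 called members. In whole kidney RNA, fewer cells of a type and less RNA per cell cannot be told apart. Without db/m replicate 3 and db/db replicate 3 together, 13 members were higher and 6 lower, and the calls of Abcb1a, Abcb6, Abcc1, Abcc5, Slc22a4, Slc22a17, Slc22a18 and Slco4a1 were lost (adjusted p from 0.0541 to 0.0936). With total counts only in place of TMM factors 15 were higher and 14 lower. That scaling moved the median over all genes to -0.32 on the log2 scale.

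**Figure D1:**
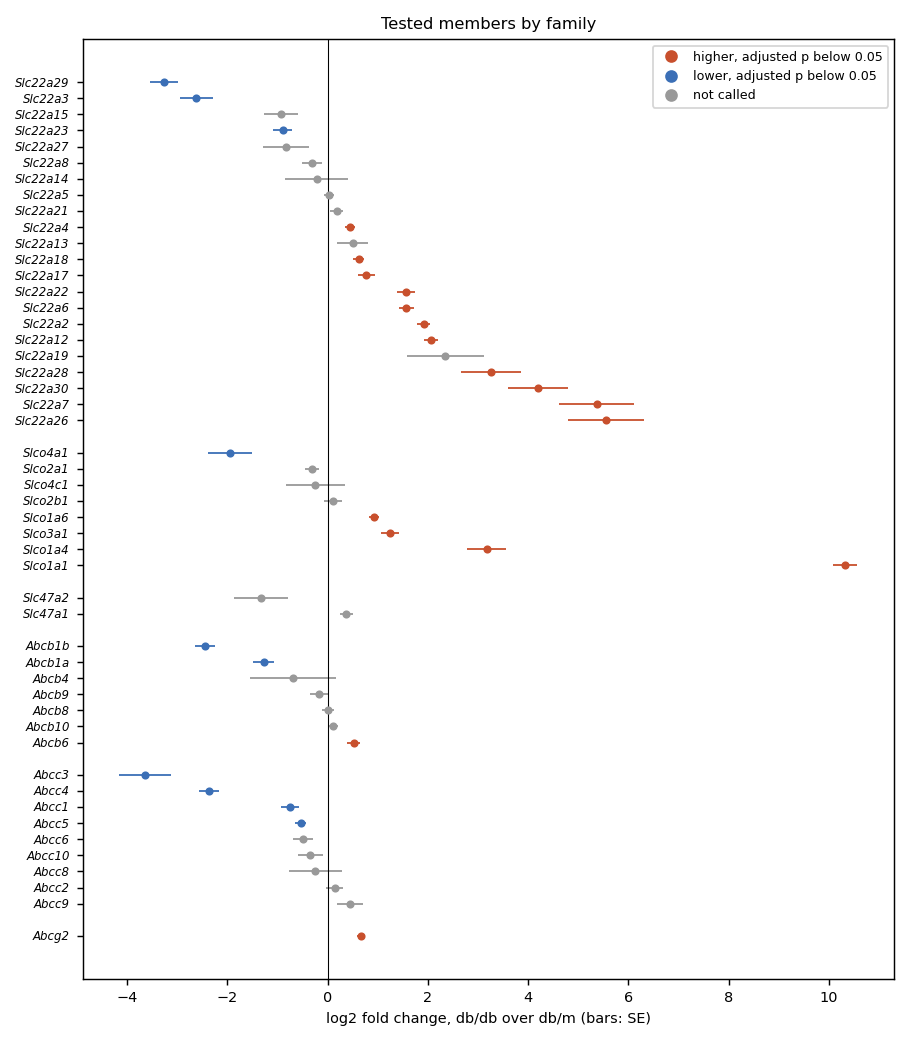
Log2 fold change of 49 of the 51 tested members, db/db over db/m, with its SE (horizontal axis), grouped by family from Slc22a at the top to Abcg2 at the bottom. Red points are called higher, blue points called lower and grey points not called; the highest is Slco1a1 at 10.33 and the lowest Abcc3 at -3.64.

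The carriers that load organic anions from blood did not move as one. Slc22a6, organic anion transporter 1 of the basolateral membrane, was at 576, 402 and 563 CPM in db/m replicates 1 to 3 and at 1453, 1656 and 1468 CPM in db/db replicates 1 to 3. All db/db libraries lay above all db/m libraries, with a log2 fold change of 1.57 (adjusted p = 0.00101, SE 0.15). Slc22a8, organic anion transporter 3, which works beside it in the same membrane, was at 918, 624 and 553 CPM under db/m and at 532, 653 and 496 CPM under db/db. These ranges overlapped, and its log2 fold change of -0.32 (SE 0.20) did not pass (adjusted p = 0.282). With total counts only it passed as lower (log2 fold change -0.57, adjusted p = 0.0467). The ratio of Slc22a6 to Slc22a8 counts within a library, which no scaling of libraries can change, was 0.627, 0.644 and 1.02 under db/m and 2.73, 2.54 and 2.96 under db/db. The ratios did not overlap (exact permutation test, two-sided p = 0.1, the smallest that 3 against 3 libraries can give). This pair and the other ratios below were picked after their values were seen. The genes are next to each other on chromosome 19.

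Slc22a7, organic anion transporter 2, rose far and spread widely within each group. It was at 1.35, 13.1 and 5.06 CPM in db/m replicates 1 to 3 and at 362, 178 and 281 CPM in db/db replicates 1 to 3. The groups stood far apart, with a log2 fold change of 5.37 (adjusted p = 0.00331, SE 0.75) that became 6.41 without db/m replicate 2. Slc22a19, organic anion transporter 5, followed a like order of libraries, at 5.09, 36.6 and 7.12 CPM under db/m and 112, 40.1 and 98.3 CPM under db/db. Here db/m replicate 2 almost reached db/db replicate 2, and the log2 fold change of 2.35 (SE 0.76) did not pass (adjusted p = 0.0626). It passed without db/m replicate 2 (3.78, adjusted p = 0.00675), with the DESeq2 Wald test (adjusted p = 0.0386) and with limma-voom (adjusted p = 0.0369). Slc22a26 was nearly absent under db/m, at 0.218, 0.456 and 0.290 CPM (6, 18 and 9 counts), and stood at 23.4, 3.73 and 19.9 CPM under db/db. In all of these genes db/m replicate 2 was the highest db/m library and db/db replicate 2 the lowest db/db library. The log2 fold change of Slc22a26 was 5.55 (adjusted p = 0.00316, SE 0.76).

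The straight end of the proximal tubule, the S3 segment, is where Slc22a7 is known to be expressed, and most listed S3 markers also rose. Of 7 listed S3 markers 5 rose and 1, Slc5a10, fell. Over all genes tested 13.1% were higher and 10.8% lower, the shares beside which the counts of this paragraph stand. The summed level of the 7 S3 markers was 885.6 to 1164 CPM under db/m, highest in replicate 3, and 3399 to 4427 CPM under db/db, lowest in replicate 2. Cyp7b1, an oxysterol hydroxylase on that list, was at 7.56, 5.57 and 19.8 CPM in db/m replicates 1 to 3 and at 262, 104 and 209 CPM in db/db replicates 1 to 3. Its lowest db/m library was replicate 2, where Slc22a7, Slc22a19 and Slc22a26 were highest, so the order of libraries was shared under db/db only. Genes known to be higher in male kidney also moved, with 6 of 7 higher and a summed level of 1313 to 3147 CPM under db/m and 43690 to 47930 CPM under db/db. Acsm3 and Slc7a13 are on both lists. Kap, the androgen-regulated kidney protein, was at 292, 231 and 1400 CPM under db/m, so db/m replicate 3 was the highest there. All 3 listed female-biased genes in the table, Prlr, Slc7a12 and Cyp4a14, fell. Of 12 markers of segments S1 and S2, which come before S3, 4 fell and 8 did not pass. The 33.3% that passed stand beside 24.0% of all genes, and the median log2 fold change of the 12 was -0.40. Their summed levels of 8425 to 11580 CPM under db/m and 9563 to 12090 CPM under db/db overlapped. The largest part of that sum was Slc34a1, at 6422, 4033 and 4324 CPM under db/m and 6489, 8185 and 6195 CPM under db/db. Its log2 fold change of 0.50 was opposite in sign to that median and did not pass. The part of these marker groups in the transporter results was not tested.

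Slc22a28, Slc22a29 and Slc22a30 follow each other on chromosome 19 and encode closely related organic anion carriers. Slc22a30 was at 6.54, 4.05 and 21.5 CPM under db/m and at 192, 188 and 206 CPM under db/db. Slc22a28 was at 8.03, 6.08 and 31.4 CPM under db/m and at 153, 140 and 141 CPM under db/db. Both rose, by 4.20 (adjusted p = 0.00343, SE 0.59) and 3.26 (adjusted p = 0.00925, SE 0.60) on the log2 scale. In both, db/m replicate 3 was 3 or more times the other db/m libraries, and without it the log2 fold changes were 5.23 and 4.37. Slc22a29, which lies between them, went the other way, at 21.04, 27.9 and 15.2 CPM under db/m and 2.73, 1.78 and 2.15 CPM under db/db (log2 fold change -3.27 with an SE of 0.28, adjusted p = 0.000561). The count ratio of Slc22a30 to Slc22a29 was 0.311, 0.145 and 1.42 under db/m and 70.4, 106 and 95.5 under db/db, without overlap (exact permutation test, two-sided p = 0.1, again the smallest possible). The promoter windows of the 3 genes are printed because the 2 genes that rose share almost all of theirs.
Slc22a28: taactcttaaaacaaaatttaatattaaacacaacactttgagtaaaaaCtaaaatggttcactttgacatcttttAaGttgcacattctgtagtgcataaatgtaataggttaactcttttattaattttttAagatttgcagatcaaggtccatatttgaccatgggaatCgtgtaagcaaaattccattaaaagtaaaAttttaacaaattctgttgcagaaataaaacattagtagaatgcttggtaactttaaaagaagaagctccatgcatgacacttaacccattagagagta
Slc22a30: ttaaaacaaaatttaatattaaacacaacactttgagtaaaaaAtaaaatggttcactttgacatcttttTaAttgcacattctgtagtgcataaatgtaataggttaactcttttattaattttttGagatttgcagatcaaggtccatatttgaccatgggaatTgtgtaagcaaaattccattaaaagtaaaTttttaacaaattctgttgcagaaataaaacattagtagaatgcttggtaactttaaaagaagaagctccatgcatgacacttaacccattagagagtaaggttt
Slc22a29: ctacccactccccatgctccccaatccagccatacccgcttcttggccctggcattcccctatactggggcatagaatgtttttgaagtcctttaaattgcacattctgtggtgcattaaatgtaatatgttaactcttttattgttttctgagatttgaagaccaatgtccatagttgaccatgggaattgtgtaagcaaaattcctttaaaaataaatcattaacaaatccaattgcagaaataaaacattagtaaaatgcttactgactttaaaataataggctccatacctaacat
These are RefSeq windows of GRCm38.p6, from 250 bases before to 50 bases after the annotated start on the gene's own strand. All are on the minus strand, at chr19:8131933-8132232, chr19:8405056-8405355 and chr19:8218851-8219150 in the order printed. Laid side by side without gaps, the windows of Slc22a28 and Slc22a30 matched at 288 of 294 bases (98%), and capitals in both mark the 6 bases that differ. The window of Slc22a29 is in lower case throughout. The window of Slc22a29 matched that of Slc22a30 at 188 of 276 bases (68.1%) and that of Slc22a28 at 186 of 282 (66%) in the best alignment without gaps. These genes also share transcript sequence. Of the 50-base stretches in the longest coding transcript of GENCODE M21, 53.9% of those in Slc22a28 and 35.9% of those in Slc22a30 occur in another gene, so the division of reads between the pair is uncertain. For Slc22a29 the share was 30.5%, mostly with Slc22a27. Slc22a27 stood at 0.322 to 0.835 CPM under db/m and 0.277 to 0.329 CPM under db/db (log2 fold change -0.82 with an SE of 0.46, adjusted p = 0.225).

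**Figure D2:**
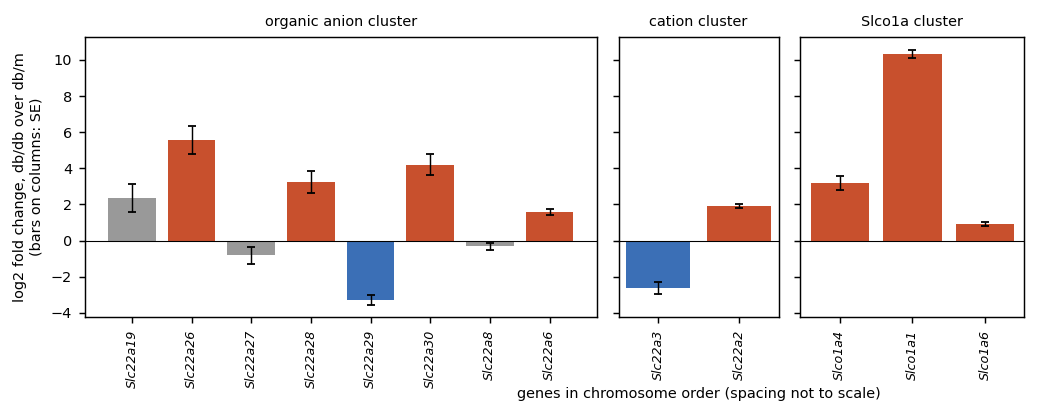
Log2 fold change, db/db over db/m, with its SE, of tested members in 3 gene clusters, drawn in chromosome order with spacing not to scale. Red columns are called higher, blue called lower and grey not called. In the organic anion cluster Slc22a29 at -3.27 stands between Slc22a28 at 3.26 and Slc22a30 at 4.20, and in the cation cluster Slc22a3 at -2.62 stands next to Slc22a2 at 1.92.

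A urate carrier of reabsorption and one of secretion were both among the members that rose. Abcc4, another apical pump that carries urate, fell (log2 fold change -2.36 with an SE of 0.20, adjusted p = 0.000535), with its values given below. Slc22a12, the apical urate exchanger of reabsorption, was at 689, 554 and 516 CPM under db/m and at 2389, 2597 and 2349 CPM under db/db. The groups were well apart (log2 fold change 2.06 with an SE of 0.13, adjusted p = 0.000212), and Slc22a12 became the member with the highest level per exon length. Abcg2, an apical pump that secretes urate and many drugs, was at 241, 211 and 213 CPM under db/m and 360, 353 and 344 CPM under db/db (log2 fold change 0.67 with an SE of 0.085, adjusted p = 0.00241). The rise was larger for the exchanger: the count ratio of Slc22a12 to Abcg2 was 2.64 ± 0.214 under db/m and 6.95 ± 0.375 under db/db (SD, n = 3 each, exact permutation test, two-sided p = 0.1). Slc22a13, a nicotinate and urate exchanger, overlapped between groups, at 47.8, 92.5 and 72.3 against 122, 60.9 and 117 CPM (adjusted p = 0.278), and 36% of its 50-base stretches occur in the pseudogene Slc22a13b-ps. Exons of Slc22a12 overlap those of Nrxn2 on the opposite strand in GENCODE M21, and whether the counting used strand was not given in the sources used here. Among urate carriers outside the families, Slc17a3 stood at 123, 137 and 164 CPM under db/m and 778, 792 and 711 CPM under db/db, a log2 fold change of 2.43 (adjusted p = 7.7e-05, SE 0.13). Slc2a9, the basolateral urate exit, had a log2 fold change of -0.24 (adjusted p = 0.296, SE 0.16).

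The prostaglandin carrier Slc22a22 rose from 30.5, 26.6 and 43.1 CPM under db/m to 102, 99.5 and 95.1 CPM under db/db (log2 fold change 1.57 with an SE of 0.17, adjusted p = 0.00152). The db/db libraries were close together and all above the db/m libraries. Slco2a1, the prostaglandin transporter known from endothelium and collecting duct, overlapped at 25.0, 36.4 and 32.2 against 26.9, 24.1 and 24.6 CPM (adjusted p = 0.156). It passed as lower without db/m replicate 1 (adjusted p = 0.0359) and with total counts only (adjusted p = 0.0282). The 9 endothelial markers had log2 fold changes from 0.052 to 0.61 and did not pass.

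The cation carriers also split. Slc22a2, organic cation transporter 2 and the main basolateral cation uptake step of the kidney, was at 104, 92.6 and 128 CPM under db/m and at 411, 399 and 416 CPM under db/db. It rose in all db/db libraries (log2 fold change 1.92 with an SE of 0.13, adjusted p = 0.000226). Slc22a3, organic cation transporter 3, lies next to it and was low, at 2.62, 2.13 and 2.67 CPM under db/m and 0.361, 0.277 and 0.548 CPM under db/db. It fell by 2.62 on the log2 scale (adjusted p = 0.00228, SE 0.33). The count ratio of Slc22a2 to Slc47a1, the apical step that follows uptake, was 0.188 ± 0.0376 under db/m and 0.544 ± 0.0491 under db/db (SD, n = 3 each, exact permutation test, two-sided p = 0.1). Slc47a1, the apical proton exchanger that completes cation secretion, stood at 686, 499 and 563 CPM against 742, 814 and 708 CPM, without overlap but without passing the test (log2 fold change 0.37 with an SE of 0.13, adjusted p = 0.0798). It passed without db/m replicate 1 (adjusted p = 0.0186) and with the DESeq2 Wald test (adjusted p = 0.0259). Slc47a2 was at 1.74 CPM or less in every library (adjusted p = 0.112), and passed as lower without db/m replicate 3 (adjusted p = 0.0326).

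Carriers of carnitine and other zwitterions showed small differences. Slc22a5, the carnitine transporter, was at 263, 270 and 228 CPM under db/m and 240, 275 and 260 CPM under db/db, with a log2 fold change of 0.029 (adjusted p = 0.851, SE 0.098). Its neighbour Slc22a21 had 0.18 (adjusted p = 0.346, SE 0.13), and 24.2% of the 50-base stretches of Slc22a21 occur in other genes, mostly Slc22a5. Slc22a4, the ergothioneine transporter in the same cluster, rose by 0.45 (adjusted p = 0.0138, SE 0.091) on the log2 scale, a call that ended with total counts only (0.19, adjusted p = 0.14). Slc22a18, an orphan carrier, was higher by 0.62 (adjusted p = 0.00849, SE 0.11). Slc22a17, a receptor for the iron-binding protein lipocalin 2, was higher by 0.77 (adjusted p = 0.0188, SE 0.17), but did not pass without db/db replicate 1 (adjusted p = 0.0546) or replicate 2 (adjusted p = 0.0641). The orphan carrier Slc22a23 fell from 83.0, 105 and 64.2 CPM to 51.0, 43.3 and 40.99 CPM, by 0.90 on the log2 scale (adjusted p = 0.0131, SE 0.18), and missed the threshold without db/db replicate 2 or replicate 3 (adjusted p = 0.053 and 0.0552). Slc22a15 and Slc22a14 stayed below 4 CPM in every library and did not pass, but Slc22a15 passed as lower with total counts only (log2 fold change -1.19, adjusted p = 0.0356), and its ranges of 2.40 to 3.77 CPM under db/m and 1.11 to 2.15 CPM under db/db did not overlap.

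**Figure D3:**
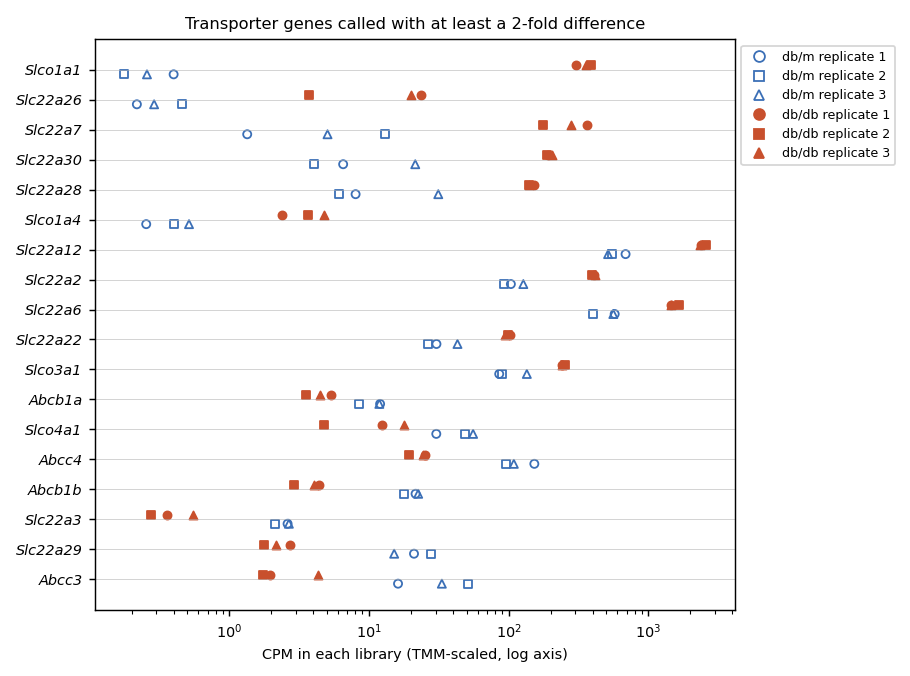
CPM in each library (log axis) of the 18 members called with at least a 2-fold difference, ordered by log2 fold change from Slco1a1 at the top to Abcc3 at the bottom. Open blue symbols are db/m libraries and filled red symbols db/db libraries, with one shape per replicate number; no gene shows overlap between the labels, and Slc22a7 and Slc22a26 spread most within a label.

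In the Slco family the 3 tested genes of the Slco1a cluster rose by very different amounts. Slco1a1, an apical organic anion carrier that is higher in male kidney, had 11, 7 and 8 counts under db/m, or 0.400, 0.177 and 0.258 CPM, and stood at 305, 386 and 360 CPM under db/db. Its log2 fold change of 10.33 (adjusted p = 7.18e-06, SE 0.24) was the largest of all members. Slco1a4, which carries bile acids and digoxin, was at 0.254, 0.405 and 0.515 CPM under db/m and 2.37, 3.69 and 4.75 CPM under db/db, low in both groups yet without overlap (log2 fold change 3.18 with an SE of 0.39, adjusted p = 0.00209). Slco1a6 was already present under db/m, at 140, 140 and 128 CPM, and was at 231, 277 and 269 CPM under db/db (log2 fold change 0.93 with an SE of 0.097, adjusted p = 0.00127). The ratio of Slco1a1 to Slco1a6 counts was 0.00285, 0.00126 and 0.00201 under db/m and 1.32, 1.39 and 1.34 under db/db, so the db/db libraries were close to each other. From 2.26% to 5.6% of the 50-base stretches of these 3 genes occur in other genes. The window at the start of Slco1a1 is printed because this gene had the largest change.
Slco1a1: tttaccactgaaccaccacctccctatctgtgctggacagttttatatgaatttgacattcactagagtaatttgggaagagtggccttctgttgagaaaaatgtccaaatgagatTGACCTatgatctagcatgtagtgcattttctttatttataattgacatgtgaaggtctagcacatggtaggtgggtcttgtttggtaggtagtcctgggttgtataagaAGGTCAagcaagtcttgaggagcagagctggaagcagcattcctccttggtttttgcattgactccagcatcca
It is the RefSeq window of GRCm38.p6 at chr6:141946913-141947212 on the minus strand. Capitals mark matches to the nuclear receptor element AGGTCA, at -134 to -129 on the opposite strand and at -24 to -19 on the gene's strand, letters that occur on either strand in 16.3% of all windows. The element AGAACA, bound by androgen and glucocorticoid receptors, was not in this window and occurs in 19.0% of all windows.

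Outside that cluster, Slco3a1, a prostaglandin and thyroid hormone carrier, was at 85.8, 89.1 and 135 CPM under db/m and 241, 253 and 243 CPM under db/db (log2 fold change 1.25 with an SE of 0.18, adjusted p = 0.00337). Slco4a1, which carries thyroid hormones, fell from 30.4, 48.9 and 55.7 CPM to 12.4, 4.79 and 17.8 CPM (log2 fold change -1.95 with an SE of 0.44, adjusted p = 0.0201). That call ended without db/m replicate 2 or db/db replicate 1 (adjusted p = 0.0565 and 0.0627). Slco4c1, a basolateral carrier of the proximal tubule, varied within groups, at 4.73, 3.34 and 7.25 CPM under db/m and 2.09, 2.18 and 8.58 CPM under db/db, where db/db replicate 3 was the highest of all libraries (adjusted p = 0.782). Slco2b1, a broad uptake carrier, overlapped at 20.4 to 27.6 CPM under db/m and 19.9 to 29.4 CPM under db/db. The 4 members not tested were Slco1a5, Slco1b2, Slco1c1 and Slco5a1, with at most 7 counts in any library. Slco1b2, known from liver, had 7, 3 and 0 counts under db/db and 0 in all db/m libraries.

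The 4 efflux pumps with a called difference of at least 2-fold were all lower. Abcc4, an apical pump for organic anions, urate and cyclic nucleotides, was at 153, 95.4 and 109 CPM under db/m and 25.4, 19.5 and 24.6 CPM under db/db. The db/db libraries were all far below (log2 fold change -2.36 with an SE of 0.20, adjusted p = 0.000535). Abcc2, the other apical multidrug resistance pump of the proximal tubule, did not pass: it was at 235, 178 and 150 CPM under db/m and 228, 195 and 199 CPM under db/db (log2 fold change 0.14 with an SE of 0.17, adjusted p = 0.559). The count ratio of Abcc4 to Abcc2 was 0.637 ± 0.0957 under db/m and 0.112 ± 0.0119 under db/db (SD, n = 3 each, exact permutation test, two-sided p = 0.1). Abcc3, a basolateral pump for conjugates and bile acids, was at 16.2, 51.2 and 33.3 CPM under db/m and 1.97, 1.74 and 4.34 CPM under db/db. It had the largest fall of the members, -3.64 on the log2 scale (adjusted p = 0.0035, SE 0.52), with db/m replicate 1 well below the other db/m libraries. The 8 macrophage markers were each lowest in db/m replicate 1 among the db/m libraries, with summed levels of 193, 3204 and 1628 CPM against 391 to 452 CPM under db/db, and 1 of them, Lyz2, fell. Most of the sum was Cd74, at 129, 3037 and 1445 CPM under db/m, and 6 of the 8 were highest in db/m replicate 3, unlike Abcc3. Their part in the Abcc3 result was not tested, and without db/m replicate 2 it had a log2 fold change of -3.19 (adjusted p = 0.00941). Abcc1 and Abcc5, widely expressed pumps for conjugates and nucleotides, were lower by smaller amounts. Abcc1 had a log2 fold change of -0.75 (adjusted p = 0.0244, SE 0.18) and missed the threshold when db/m replicate 2 or 3 or db/db replicate 1 or 2 was left out (adjusted p = 0.0635 to 0.0801). Abcc5 had -0.54 (adjusted p = 0.0149, SE 0.11), or adjusted p = 0.0559 without db/db replicate 1.

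Both P-glycoprotein genes were lower. Abcb1b was at 21.6, 17.8 and 22.5 CPM under db/m and 4.42, 2.89 and 4.05 CPM under db/db (log2 fold change -2.45 with an SE of 0.19, adjusted p = 0.000435). Abcb1a was at 12.03, 8.53 and 11.9 CPM under db/m and 5.34, 3.57 and 4.45 CPM under db/db (log2 fold change -1.28 with an SE of 0.22, adjusted p = 0.00717). The groups overlapped for neither gene. The count ratio of Abcb1a to Abcb1b was 0.557, 0.478 and 0.527 under db/m and 1.21, 1.23 and 1.10 under db/db, without overlap (exact permutation test, two-sided p = 0.1). The genes are neighbours, and 17% of the 50-base stretches of Abcb1a and 18.3% of those of Abcb1b occur in other genes, mostly in each other. Abcb1a is also known from endothelium, whose markers had summed levels of 338 to 494.6 CPM under db/m and 441 to 537 CPM under db/db. Abcb4, the phosphatidylcholine pump of bile canaliculi, was at 0.727 CPM or less in every library.

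Pumps of organelles and channel subunits showed smaller differences. Abcb6, a porphyrin transporter, had a log2 fold change of 0.52 (adjusted p = 0.0285, SE 0.13), but 90.3% of its 50-base stretches lie in the overlapping gene model Gm29253. It missed the threshold under scaling by total counts (0.26, adjusted p = 0.143), with the replicate number as a block (adjusted p = 0.0763), and when db/m replicate 2 or any single db/db library was left out (adjusted p from 0.0555 to 0.0885). The mitochondrial pumps Abcb8 and Abcb10 and the lysosomal peptide pump Abcb9 had log2 fold changes from -0.18 to 0.11 and did not pass. Abcc6, which is needed for release of ATP from cells, was at 28.6, 19.1 and 17.0 against 15.2, 17.0 and 13.8 CPM (adjusted p = 0.119, or 0.0212 with total counts only). Abcc9, the sulfonylurea receptor of mural cells, was at 11.0, 7.09 and 10.1 CPM under db/m and 15.7, 8.80 and 14.02 CPM under db/db (adjusted p = 0.233). Its channel partner Kcnj8, on the list of mural cell markers, rose by 2.32 (adjusted p = 0.00183, SE 0.27), while the other 7 markers of that list did not pass. Abcc8, the pancreatic sulfonylurea receptor, was at 0.557 CPM or less, and Abcc10 did not pass (adjusted p = 0.331).

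Levels were compared between genes per kilobase of exon (CPM divided by exon length in GENCODE M21, where all 55 members have one, although the annotation of the counting was not given). Under db/m the first and second places were held by Slc22a18 at 274.8 ± 33.4 and Slc22a12 at 259 ± 40.0 CPM per kilobase (SD, n = 3), whose ranges of 1 SD overlapped. Under db/db Slc22a12 stood alone at 1080 ± 58.8, ahead of Slc22a18 at 422 ± 23.3 and Slc22a6 at 383 ± 28.4, whose ranges of 1 SD overlapped. By this measure Slc22a8 went from the fourth place, ahead of Slc22a6 in the sixth, to the seventh, behind Slc22a6 in the third. Under db/m Slc22a8 was at 178.6 ± 49.5 and Slc22a6 at 128.9 ± 24.3, with ranges of 1 SD that overlapped, so their order there was not clear. Slc22a7 went from place 33 to place 8 of the 55 members, at 3.10 ± 2.86 and 130.2 ± 44.1. Slco1a1 went from place 50 to place 12, at 0.0527 ± 0.0214 and 66.5 ± 7.87. Abcc4 went from place 13 to place 31, at 18.7 ± 4.71 and 3.62 ± 0.5002.

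**Figure D4:**
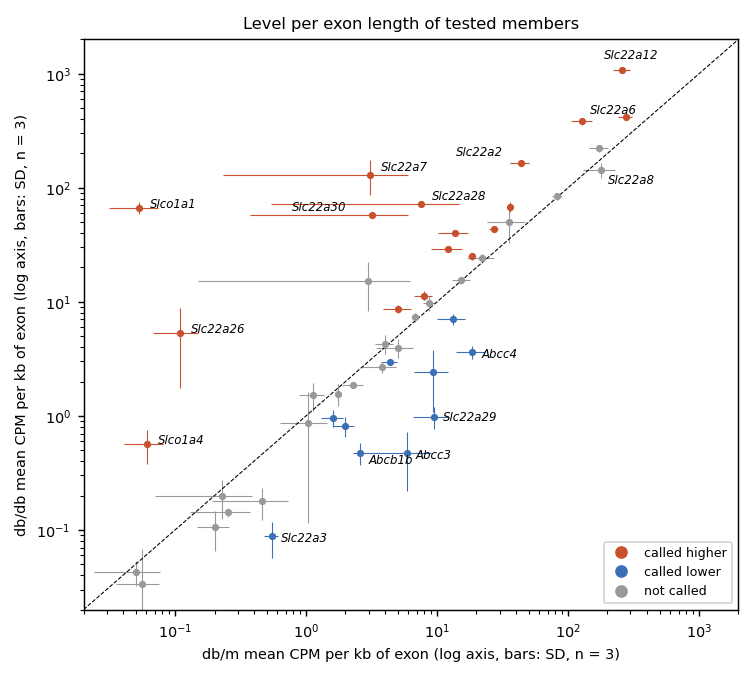
Mean CPM per kilobase of exon of 49 of the 51 tested members under db/m (horizontal) and db/db (vertical), both on log axes, with bars of 1 SD over 3 libraries, shortened at the low end where the SD is nearly as large as the mean or larger. Red points are called higher, blue called lower and grey not called, and points on the dashed line are equal in both groups; Slco1a1, Slc22a7 and Slc22a26 lie farthest above it and Abcc3 and Slc22a29 farthest below.

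Genes that work with these carriers changed in part. Of 9 genes for dicarboxylate or sulfate transport, scaffolds and carrier turnover, 2 rose and 3 fell, 55.6% against 24.0% of all genes. Pdzk1, the scaffold that holds apical carriers including Slc22a12 in the membrane, was at 871, 824 and 947 CPM under db/m and 1342, 1337 and 1257 CPM under db/db (log2 fold change 0.57 with an SE of 0.093, adjusted p = 0.00593). Slc13a3, the basolateral dicarboxylate carrier that drives organic anion exchange, had 0.22 (adjusted p = 0.324, SE 0.15). Sgk1, a kinase that raises the activity of several carriers, fell by 1.29 (adjusted p = 0.00654, SE 0.21), and Nedd4l, a ubiquitin ligase that acts on them, rose by 0.64 (adjusted p = 0.00823, SE 0.11). Of 21 tested organic solute carriers outside the families 9 rose and 3 fell, 57.1% against 24.0% of all genes. Slc46a3 and Slc46a1, the latter a folate carrier, rose by 1.38 (adjusted p = 0.000352, SE 0.10) and 1.06 (adjusted p = 0.000845, SE 0.098). Slc51a, a subunit of the basolateral bile acid exit, was at 33.1, 41.1 and 61.8 CPM against 123, 173 and 132 CPM, and Slc10a2, the apical bile acid uptake carrier, fell by 1.26 (adjusted p = 0.0154, SE 0.27).

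Among 19 tested transcription factors and receptors known to control these families, 4 rose and 3 fell, 36.8% against 24.0% of all genes. Prlr, the prolactin receptor, was at 55.2, 43.4 and 65.6 CPM under db/m and 11.2, 8.004 and 11.0 CPM under db/db (log2 fold change -2.44 with an SE of 0.19, adjusted p = 0.000452). Ghr, the growth hormone receptor, rose by 1.26 (adjusted p = 0.00194, SE 0.15), and Nr1h3, the oxysterol receptor LXR alpha, by 0.72 (adjusted p = 0.0013, SE 0.076). Nr1i2, the drug-sensing receptor PXR, which is known to induce P-glycoprotein genes, was at 14.06, 14.02 and 12.3 CPM under db/m and 5.94, 7.77 and 6.94 CPM under db/db, a fall of 0.97 on the log2 scale (adjusted p = 0.0049, SE 0.15). Nfe2l2, the antioxidant factor known to induce Abcc3 and Abcc4, did not pass (log2 fold change -0.41 with an SE of 0.13, adjusted p = 0.0618). Hnf4a, a driver of proximal tubule identity, did not pass either (0.31, adjusted p = 0.0866, SE 0.11).

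Short promoter elements were counted in the members of each direction. The STAT element (TTC, any 3 bases, GAA) was in a window of 1 of 15 higher, 2 of 8 lower and 5 of 20 other members with a window, and in 9.55% of all genes with one. The androgen and glucocorticoid receptor element AGAACA was in 3 of 15, 3 of 8 and 4 of 20, and in 21.3% of all genes. The antioxidant core (TGAC, any 3 bases, GC) was in 0 of 15 higher, 2 of 8 lower and 4 of 20 other members, and in 14% of all genes. The lower members with it were Abcb1a and Abcc4, and the other members with it were Abcc2, Abcc10, Slc22a27 and Slco4c1, so it was found in efflux pumps with and without a call. The nuclear receptor element AGGTCA was in 3 of 15, 1 of 8 and 5 of 20, and in 18.1% of all genes. All searches covered both strands, an exact match is only a description of these letters, and 12 members had no window.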

How the data were processed

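The deposited table holds whole-number counts per gene symbol for 6 libraries. The authors used fastp, FastQC, HISAT2, SAMtools, StringTie and DESeq2, per the submitters' processing notes; no genome build or annotation was given in the sources used here. Only 1318 counts of 1 stand beside 4164 counts of 2 over all libraries, so low counts were not those of a plain read count.

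The counts were fitted as deposited with edgeR 4.0.16 in R 4.3.3 (filterByExpr, TMM factors, glmQLFit and glmQLFTest, group as the only term), with Benjamini-Hochberg adjustment over all 16373 genes tested and a threshold of 0.05. An SE was taken as the absolute log2 fold change over the square root of the F statistic. CPM are counts scaled to a common library size with TMM factors. At this depth 3 counts equal 0.0835 to 0.116 CPM of total counts, a limit for counting error only. DESeq2 1.42.0, limma-voom (limma 3.58.1), other scaling factors, other low-count filters, a replicate block and leaving out libraries were alternatives, and the method was tested on simulated data.

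Exon lengths and shared transcript sequence came from GENCODE M21 and promoter windows from RefSeq (GRCm38.p6), with 43 of 55 members matched. Members and lists were chosen with earlier results of these data known. Library values and full statistics are given by rule for members called with at least a 2-fold difference, other members by ranges with up to 3 a family in full, and up to 3 called genes of each related list by smallest p. Further genes named outside that rule, and the count ratios, were chosen after their values were seen. Some genes and a promoter element are counted in the totals but not reported here by name.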

Additional observations from a re-analysis of the deposited data

How the results depend on the processing

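Under 15 alternatives to the fit described above, 18 of the 27 called members kept their call in all, 9 lost it in at least 1, 7 uncalled members gained one, and no called member changed sign. The numbers of members called stayed within 1.5 times of the 17 higher and 10 lower except that 6 were lower without db/m replicate 3 and db/db replicate 3 together, an alternative chosen after seeing the data. Leaving out 1 library at a time gave 15 to 18 members higher and 7 to 11 lower. Over all genes, 2151 higher and 1774 lower became 1072 and 4883 with total counts only, 1052 and 660 without both replicates 3, and from 1374 to 2011 higher and from 851 to 1523 lower when 1 library was left out. The median log2 fold change with total counts only was -0.32 over all genes and -0.15 over the members, against -0.057 and 0.11; the cause was not tested. Fits with fewer libraries have fewer samples behind each call.

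With the replicate number as a block 16 members were higher and 10 lower, Abcb6 was the 1 member that lost its call (adjusted p = 0.0763), and 1313 genes were higher and 973 lower over the whole table. Libraries with the same number did not deviate together (correlations of -0.15, 0.057 and 0.14 between deviations from the group means), and not every library correlated best with its own number, so the numbers were not treated as pairing the libraries. A member at a few counts, such as Slc22a27, Abcb4 or Abcc8, cannot show a small difference at this depth.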
